A study of Mus musculus with 12 samples.

Results

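The genotype effect of Ets1 that thymus and liver share was described in iNKT1 cells, the T-bet-expressing subset of invariant natural killer T cells. All 12 libraries of the series were used, 3 in each of 4 groups. Control cells came from mice labelled Tbx21Cre; Rosa26-YFP+, and conditional knockout (cKO) cells from mice labelled Tbx21Cre; Rosa26-YFP+; Ets1F/F, each sampled in thymus and in liver. Both genotypes thus carried Cre recombinase driven by Tbx21, the gene of T-bet, and the Cre-activated YFP reporter, and only the cKO genotype carried floxed Ets1 alleles. Sorted cells were positive for CD1d tetramer and for YFP, so the deletion concerns cells that had switched Tbx21 on. The labels used here give no ages. The design text calls the 3 libraries of a group independent, and the labels do not say whether each was a separate mouse, so p-values reflect variation among these libraries, which could be technical. Members were the genes whose mean over the 2 cKO groups differed from the mean over the 2 control groups in limma (Benjamini-Hochberg adjusted p under 0.05, 2-sided) and whose difference had the same sign in both tissues. They were 295 of 13058 tested genes, 154 higher and 141 lower in cKO cells.

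Ets1 is the founding member of the ETS family of transcription factors, which bind DNA around a GGAA core, and it is made at high levels in resting T cells. iNKT cells recognise lipids shown by CD1d; the iNKT1 subset depends on T-bet, expresses receptors otherwise typical of natural killer (NK) cells, and settles in thymus and liver. T-bet and Zeb2 together promote the terminal effector state of CD8 T cells and NK cells, in which granzymes, the egress receptor S1pr5 and integrins of circulating cells are made. These statements are background and not results of the libraries described here.

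Depth, as reads recovered from the authors' values, was 18.5 to 43.4 M (mega-reads) in 10 libraries, 3.87 M in control liver library 3 and 3.21 M in cKO liver library 2. Control thymus libraries 1 and 2 had 3528 and 2824 genes with 0 reads, and control thymus library 3 had 1782. Values below are the authors' adjusted values, on which a value under 1 usually stands for 0 reads. Effects come from limma on log2(value + 1), as cKO minus control ± SE, and "over both" is the mean of the effects in the 2 tissues. The 9 defining genes of iNKT cells had summed values between 119053 and 173949 in all libraries and none passed the test, while the B cell list summed to 5472 to 8097 in control liver and 1107 to 2082 in cKO liver. That sum is almost all Ighm, a member that fell (-1.26 ± 0.31, limma adjusted p = 0.033), while the B cell gene Cd79a had group means of at most 54.4. Whether other cells in the sorts had a part in any result was not tested.

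Over both tissues 297 genes passed the test, 2.27% of those tested; 154 were higher (1.18%) and 143 lower (1.1%) in cKO cells. At an unadjusted p under 0.05 the number was 1788. All but 2 of the called genes had the same sign in both tissues, a property that the rule itself required of the members and that the mean over both tissues favours. The exceptions were Mmp9, which encodes a matrix metalloproteinase of neutrophils, and Stat4, the signal transducer of interleukin 12. Effects of the 295 members ran from 0.56 to 9.1 log2 units in size; 39 were under 1 unit, 133 between 1 and 3 and 123 above 3. The median was 2.51 among rises and -2.2 among falls, against 0.14 over all tested genes. Members were more abundant than most genes, with a median mean value of 1895 among rises and 1559.5 among falls against 406 over all tested genes, and their median SE was 0.465 and 0.419 against 0.815. The last genes to pass were Slc25a4 (1.61, adjusted p = 0.05 after rounding) and Fxyd3 (5.9, 0.05 likewise) and the first to miss were Itm2a (1.41, 0.051) and Chd7 (-0.98, 0.051). With 297 genes called, rises made up 51.9%; after TMM rescaling 124 rises and 213 falls were called, and the median over all tested genes moved from 0.141 to -0.000673. No called gene changed sign over both tissues under any of 29 alternatives.

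A member did not have to pass within each tissue. In thymus 83 genes passed (0.636%), 67 of them members, and in liver 66 passed (0.505%), 60 of them members. Among the members 12 passed in each tissue, 55 in thymus and not liver, 48 in liver and not thymus, and 180 in neither. The libraries of the 2 genotypes did not overlap within either tissue in 215 members, 112 higher and 103 lower; among all tested genes 460 were so placed, in either direction (3.52%), 238 with all cKO libraries above (1.82%) and 222 with all below (1.7%). Since libraries that stand apart help a gene to pass, that count describes the members and is no support for them. In 161 members all 6 cKO libraries lay beyond all 6 control libraries. That number has the same limit, and the share of all tested genes so placed was not counted. A stricter test asked for a p in both tissues at once, the larger of the 2 within-tissue p-values in genes of 1 sign. It called 5 genes (0.0383%): Ahnak rose, and Ets1, Lpar6, Ifi203 and Ifi213 fell. At an unadjusted p under 0.05 it held 297 genes. Without replicate 2 of cKO thymus, and without several other single libraries, it called none, as the closing section gives.

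**Figure D1:**
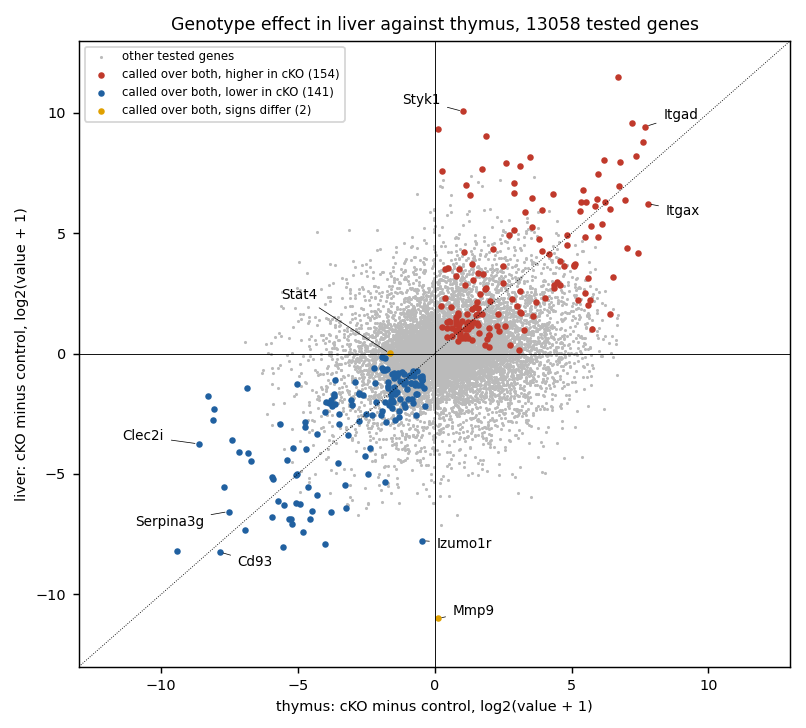
Genotype effect in liver (vertical axis) against that in thymus (horizontal axis), each cKO minus control on log2(value + 1), for 13058 tested genes, with members in red (154 higher) and blue (141 lower), the 2 called genes with differing signs in gold and equality as a dotted line. Members lie along both sides of the dotted line, and some, such as Izumo1r at -0.46, lie close to 0 in thymus.

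Genes called in 1 tissue were read in the other, whose libraries entered that call only through the filter and the shared estimate of spread. The member rule used these same 12 libraries, and 67 of 83 thymus calls and 60 of 66 liver calls are members. The shares below thus describe sharing and are no support for the members. Of 41 genes called higher in thymus, 37 (90.2%) were also above 0 in liver, where their median effect was 0.97 against 3.08 in thymus. Of 42 called lower in thymus, 36 (85.7%) were below 0 in liver, with medians of -1.67 and -3.64. Among all tested genes of the same sign in thymus the shares were 58.5% and 57.9%. In the other direction, 41 of 41 genes called higher in liver (100%) were above 0 in thymus and 23 of 25 called lower (92%) were below 0, against 65.5% and 50.5% of all tested genes. Their medians fell from 4.91 to 1.28 for rises and changed from -2.39 to -1.44 for falls. The medians were thus smaller in the tissue not used to choose, and since the genes were chosen in 1 tissue this drop is no measure of a tissue difference. Across all 13058 tested genes the effects in the 2 tissues had a Pearson correlation of 0.281 and a Spearman correlation of 0.227, as a description across genes, which are not independent of each other.

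Promoter windows were examined because the ETS core is what Ets1 binds. RefSeq windows of build GRCm38.p6, 250 bases before to 50 bases after a start, were matched by symbol for 220 of the 295 members. The windows below are those of the members with the smallest p over both tissues among the named genes that had one, printed 5′ to 3′ on the gene's strand with GGAA and its complement TTCC in capitals. Gzmb at chr14:56262285-56262584 (minus strand) rose, as did Ahnak at chr19:8989034-8989333 (plus strand). Ifi213 at chr1:173599223-173599522 (minus strand), Ifi203 at chr1:173942623-173942922 (minus strand) and Dgka at chr10:128745035-128745334 (minus strand) fell. RefSeq gives 2 windows for Ifi203 and 4 for Dgka, of which the one nearest the annotated gene start is shown and counted.
Gzmb: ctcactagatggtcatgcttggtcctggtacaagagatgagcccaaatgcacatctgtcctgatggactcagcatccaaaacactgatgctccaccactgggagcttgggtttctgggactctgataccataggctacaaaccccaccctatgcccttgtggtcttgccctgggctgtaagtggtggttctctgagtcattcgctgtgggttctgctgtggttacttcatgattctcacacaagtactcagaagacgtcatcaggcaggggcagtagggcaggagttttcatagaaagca
Ahnak: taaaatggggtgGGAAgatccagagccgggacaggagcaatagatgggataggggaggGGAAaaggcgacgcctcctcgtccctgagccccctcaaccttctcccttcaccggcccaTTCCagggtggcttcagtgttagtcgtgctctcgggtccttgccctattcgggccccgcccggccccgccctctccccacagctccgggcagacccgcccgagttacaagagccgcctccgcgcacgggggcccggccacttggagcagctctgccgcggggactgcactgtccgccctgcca
Ifi213: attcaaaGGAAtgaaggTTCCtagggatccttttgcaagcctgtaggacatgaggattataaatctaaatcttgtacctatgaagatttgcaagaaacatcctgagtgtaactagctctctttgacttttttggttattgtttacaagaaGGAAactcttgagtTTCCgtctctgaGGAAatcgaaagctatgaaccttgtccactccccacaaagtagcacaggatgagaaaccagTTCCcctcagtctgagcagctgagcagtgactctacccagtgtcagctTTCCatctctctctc
Ifi203: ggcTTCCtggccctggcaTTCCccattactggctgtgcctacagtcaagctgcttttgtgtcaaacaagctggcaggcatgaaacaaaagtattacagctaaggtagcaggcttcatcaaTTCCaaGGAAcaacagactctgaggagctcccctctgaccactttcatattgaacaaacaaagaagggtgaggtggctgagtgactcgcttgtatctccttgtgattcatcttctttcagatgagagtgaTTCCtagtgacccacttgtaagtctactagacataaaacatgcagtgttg
Dgka: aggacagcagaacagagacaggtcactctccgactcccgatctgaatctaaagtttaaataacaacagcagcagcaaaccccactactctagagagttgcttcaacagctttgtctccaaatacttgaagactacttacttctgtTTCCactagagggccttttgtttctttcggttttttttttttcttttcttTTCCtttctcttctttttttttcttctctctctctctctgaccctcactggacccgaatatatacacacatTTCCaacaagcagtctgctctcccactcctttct
The core stood 0 times in the window of Gzmb, 3 times in that of Ahnak, 7 times in that of Ifi213, 5 times in that of Ifi203 and 3 times in that of Dgka, counting both strands. Its share was 94.7% of 113 rising genes with a window, 98.1% of 107 falling genes and 96.5% of all 27025 genes in the table, so its presence hardly separates genes. The longer form CAGGAAG was in a window of 31.8% of falling genes and 15.9% of rising genes, against 15.2% of the 9070 tested genes with a window. The other longer form, CCGGAAG, was in 7.48% of falling and 3.54% of rising genes, against 21.8% of tested genes and 9.93% of all genes. A T-box sequence, AGGTGTGA, was in 1.87% of falling genes and 0% of rising genes (0 of 113), against 1.05% of tested genes. Both longer forms contain the core, and genes with several windows counted once. Matches describe letters in these windows and are not shown to be bound.

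Ets1 itself (ENSMUSG00000032035, chr9:32636221-32757820, plus strand, GRCm38) is the targeted gene and checks the labels. Its values were 23692, 28051 and 19493 in control thymus and 11817, 7069 and 5788 in cKO thymus. In liver they were 18773, 18528 and 15910.2 in control liver and 3594, 4425 and 5787 in cKO liver. The highest of the 6 cKO values was under the lowest of the 6 control values, although transcripts remained in each library. The effect was -1.58 ± 0.27 in thymus and -1.97 ± 0.27 in liver, and -1.78 ± 0.19 (limma adjusted p = 3.9e-05) over both. The count covers the whole gene, including exons that the floxed alleles may leave in place. Of the 13 tested members of the ETS family Ets1 alone passed. The abundant Elf1 (-0.3 ± 0.19) and Elf4 (-0.03 ± 0.24) did not, with limma adjusted p of 0.53 and 0.97. Erf, with a mean of 3.79 in control thymus, narrowly missed (4.12 ± 1.08, limma adjusted p = 0.053). Within 10 Mb of the start of Ets1, 50 other genes were tested, of which 1 (Aplp2) rose and 2 (Cdon and Sorl1) fell, a share of 6% against 2.27% of all tested genes; these genes were picked out after their values were seen.

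Tbx21 (ENSMUSG00000001444, chr11:97098071-97115331, minus strand) had values of 1386, 5762 and 1868 in control thymus and 4285, 3673 and 6832 in cKO thymus. Liver held 2353, 3513 and 2321 in control liver and 6321, 4831 and 4267 in cKO liver. In liver all cKO libraries were above all control libraries, while in thymus control library 2 lay among the cKO libraries. The effect was 0.95 ± 0.44 in thymus and 0.92 ± 0.44 in liver, and 0.94 ± 0.31 (limma adjusted p = 0.15) over both, so Tbx21 did not pass. Without control thymus library 2 it passed (adjusted p = 0.01), as it did without control thymus libraries 1 and 2 (0.043); over the 29 alternatives its adjusted p ran from 0.01 to 0.43. In the list of T-bet and type 1 regulators 2 of 13 tested genes rose, and Stat4 passed with differing signs, with a list median of 0.35 against 0.14 over all tested genes. Each count of list genes, here and below, stands against 1.18% of all tested genes that rose and 1.1% that fell, and a count of 1 in a list is no result about that list. The rises were Zeb2 and Ifngr1, the ligand-binding chain of the interferon gamma receptor (1.25 ± 0.22, limma adjusted p = 0.0034). Runx3, Prdm1, Id2 and Il2rb of the same list did not pass; Il2rb, for example, was 0.46 ± 0.15 in thymus and -0.55 ± 0.15 in liver.

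Zeb2, a zinc finger repressor that acts downstream of T-bet in effector cells, stood at 2.26, 12.7 and 831 in control thymus and 1053, 4575 and 1854 in cKO thymus. In liver it stood at 35.6, 107 and 6.96 in control liver and 8691, 4337 and 4646 in cKO liver. Every cKO library was above every control library, and control thymus library 3 was far above the other control thymus libraries. Zeb2 rose by 6.71 ± 1.04 (limma adjusted p = 0.0015) over both. S1pr5, the receptor for sphingosine 1-phosphate through which NK cells leave tissue, was at 0.0213, 6.97 and 184 in control thymus and 2841, 1139 and 919 in cKO thymus. Its liver values were 5.2, 24.9 and 61.7 in control liver and 1485, 2284 and 1671 in cKO liver. The 6 cKO libraries again lay above the 6 control libraries, and the rise was 6.67 ± 1.08 (limma adjusted p = 0.0022). S1pr1, the related receptor of T cell egress, rose by 1.96 ± 0.42 (limma adjusted p = 0.016) over both. Its effect was 0.38 in thymus and 3.53 in liver, so the rise came mostly from liver.

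Alpha integrins encoded near each other on chromosome 7 rose strongly, and Itgad had the largest rise over both tissues among members with a gene name. Itgad (chr7:128154376-128223816, plus strand), which encodes integrin alpha D, was at 0.0213, 9.28 and 889 in control thymus and 4784, 5805 and 2947 in cKO thymus. In liver its values were 8.68, 0 and 13 in control liver and 3400.2, 4295 and 3066 in cKO liver. Control cells had 717 reads over 3 thymus libraries, most of them in library 3, and 12 over 3 liver libraries, against 14871 and 9736 in cKO cells. The rise was 8.56 ± 1.21 (limma adjusted p = 0.00063) over both. Itgax (chr7:128129547-128150657, plus strand), the gene of CD11c, was at 0.0213, 5.81 and 444 in control thymus and 6035, 2189 and 2494 in cKO thymus. Its liver values were 299, 0.833 and 6.99 in control liver and 2130.0, 940.1 and 919.6 in cKO liver. The genotypes did not overlap in either tissue, though 1 control library of each tissue was far above the others (444 in thymus and 299 in liver), and the rise was 7.0 ± 1.32 (limma adjusted p = 0.007). The call of Itgax was lost with edgeR and with DESeq2 on recovered reads, and in both fits without the 2 liver libraries of lowest depth, with an adjusted p of up to 0.16. Itgax is also a marker of dendritic cells; the other tested genes of that list, Zbtb46, Xcr1 and Bst2, did not pass (adjusted p of 0.99, 0.82 and 0.71), and the part of such cells was not tested. Itgam, the neighbouring gene of CD11b, did not pass (2.41, adjusted p = 0.54).

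Genes of circulation and egress rose in 6 of 18 tested cases and fell in none; their median over both was 1.02. Besides S1pr1, S1pr5 and Itgax, the rises included those of Itgb1 (0.95 ± 0.16) and Itgb7 (1.09 ± 0.23), which encode beta integrin chains. The abundant integrin genes Itgal (0.23 ± 0.14) and Itgb2 (0.35 ± 0.13) did not pass, with adjusted p of 0.51 and 0.21. Without control thymus libraries 1 and 2 and the 2 shallow liver libraries, 1 gene of this list passed. In the list of tissue residency, 1 of 15 rose and 2 fell. The falls were Itga1, the alpha chain of a collagen-binding integrin (-1.58 ± 0.26, limma adjusted p = 0.0024), and the chemokine gene Xcl1 (-1.61 ± 0.3, limma adjusted p = 0.0061). Itga1 was at -1.56 in thymus and -1.6 in liver, while Xcl1 was at -0.67 in thymus and -2.54 in liver. The rise was Ccr9, a chemokine receptor of gut and thymus homing, at 262, 59 and 693 in control thymus and 2446, 2661 and 3037 in cKO thymus. In liver Ccr9 was at 3383, 4055 and 3556 in control liver and 14641, 6469.5 and 12809 in cKO liver. Ccr9 libraries of the genotypes stood apart in each tissue, and the rise was 2.58 ± 0.43 (limma adjusted p = 0.0028). Cxcr6, a chemokine receptor of the same list, did not pass (-0.2 ± 0.15, limma adjusted p = 0.6).

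**Figure D2:**
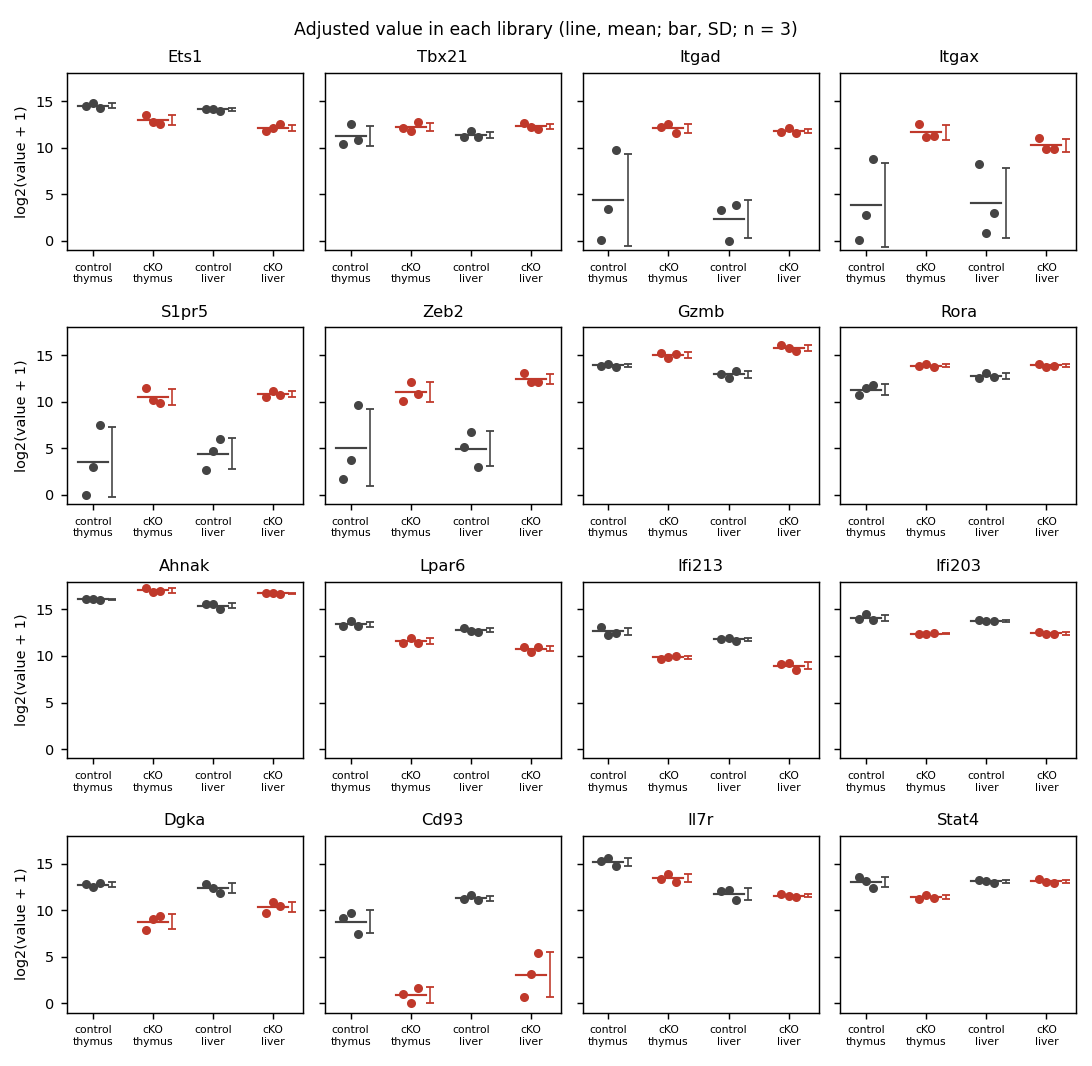
Adjusted values on a log2(value + 1) axis in each library for 16 genes, with dots for libraries, a line at the group mean and a bar for the SD (n = 3 per group). In Itgad, Itgax, S1pr5 and Zeb2 control libraries spread over many units while cKO libraries sit together near the top, in Ahnak, Lpar6, Ifi213 and Ifi203 all groups are tight, and in Stat4 the genotypes are apart in thymus and overlap in liver.

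Gzmb (ENSMUSG00000015437, chr14:56258838-56262260, minus strand), the granzyme B protease of cytotoxic granules, had the smallest p of all genes. Its values were 15045, 17618 and 14109 in control thymus and 39803, 26034 and 34870.1 in cKO thymus. Liver values were 7927, 5937 and 10279 in control liver and 71896, 54843 and 46204 in cKO liver. The genotypes were apart over all 12 libraries, with the highest values in cKO liver. The rise was 1.09 ± 0.23 in thymus and 2.85 ± 0.23 in liver, and 1.97 ± 0.16 (limma adjusted p = 4.5e-06) over both. Perforin went the other way: Prf1, whose product opens the target membrane, fell by 3.15 ± 0.74 (limma adjusted p = 0.027) over both, and its liver effect was -1.26 ± 1.04. The call of Prf1 was lost under 11 of 29 alternatives. Of 21 tested cytotoxic effector genes 2 rose and 1 fell, with Serpinb9, an inhibitor of granzyme B, as the second rise (1.42 ± 0.27, limma adjusted p = 0.0075). Nkg7 (0.71 ± 0.19, adjusted p = 0.063) and Lyst (-0.58 ± 0.18, 0.11) did not pass.

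The list of terminal effector CD8 T cell genes held the most called members, 11 higher and 2 lower of 22 tested, with a median of 1.83. Rises beside Gzmb, Zeb2, S1pr5, Itgax and Ahnak were those of the galectins Lgals3 (4.6 ± 0.74) and Lgals1 (4.18 ± 0.8), the calcium-binding S100a4 (2.21 ± 0.42) and S100a6 (1.69 ± 0.32), vimentin (Vim, 1.35 ± 0.32) and annexin A2 (Anxa2, 1.26 ± 0.28). Lgals3 was at 104, 813 and 1207 in control thymus and 3836, 5727 and 4512 in cKO thymus. The liver libraries gave 389.7, 129 and 6.97 in control liver and 5179.7, 4955 and 3325 in cKO liver. Its lowest cKO library was above its highest control library by a wide margin in both tissues. The call of Vim was kept under 17 of 29 alternatives. In thymus the effects of S100a4, Vim and Anxa2 were 0.89, 0.37 and 0.59, and in liver 3.53, 2.33 and 1.94. Their rises thus came mostly from liver, while Lgals1 had the larger effect in thymus (4.71, with 3.64 in liver). Prf1 and Cd44 were the falls. Klrg1 and Cx3cr1, hallmarks of that state, did not pass (2.15, adjusted p = 0.57, and 4.36, 0.11), nor did Gzma (-1.82, 0.34). The list was chosen with earlier results of these libraries known. Without the 4 libraries named above, 6 of its genes were higher and 0 lower.

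Among NK cell receptors 3 of 23 tested genes rose and 1 fell, and the list median of 0.1 lay near that of all genes. The rises in this list were Styk1 and the Ly49 genes Klra1 and Klra4. Klra2, a Ly49 gene that the list does not hold, rose as well (5.49 ± 1.23, limma adjusted p = 0.021), a call kept under 20 of 29 alternatives. Klra1 was at 2849, 3519 and 2840.4 in control thymus and 3749.9, 5713 and 3528 in cKO thymus. Among liver libraries the values were 466, 461 and 274 in control liver and 5020.3, 3811 and 4863 in cKO liver. The thymus libraries came close without overlapping, and the liver libraries were far apart. The effect of Klra1 was 0.47 ± 0.38 in thymus and 3.54 ± 0.38 in liver, and 2.0 ± 0.27 (limma adjusted p = 0.00043) over both. Klra4 rose by 2.55 ± 0.41 (limma adjusted p = 0.0022). Ly49 genes resemble one another closely and the counting of reads that match several of them is unknown here, so single members are uncertain. Klrk1, the gene of the activating receptor NKG2D, fell by 1.64 ± 0.27 (limma adjusted p = 0.0024), and Fcer1g, an adaptor with an ITAM motif, by 3.02 ± 0.59 (limma adjusted p = 0.0085). Klrd1 (0.16 ± 0.2) and Klrb1c (0.03 ± 0.24) did not pass. Clec2i, which encodes a ligand of Klrb1-type receptors, was at 932, 2457 and 1561 in control thymus and 2.06, 0 and 17.6 in cKO thymus. Liver samples held 2218, 1727 and 1513 in control liver and 122, 61.2 and 312 in cKO liver. All cKO libraries were lower than all control libraries, with a log2 change of -6.19 ± 0.82 (limma adjusted p = 0.00038).

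The tissues differed for 1 member, Styk1, whose product resembles receptor kinases and whose gene lies near the Ly49 genes. Its values were 3609.8, 4717 and 8599.9 in control thymus and 16111, 10136 and 7747 in cKO thymus. For liver the values were 0, 5.98 and 0.889 in control liver and 3528, 2812 and 1628 in cKO liver. Thymus libraries overlapped, whereas control liver libraries held 7 reads in all and cKO liver libraries 8051. The effect was 1.04 ± 0.7 in thymus and 10.06 ± 0.7 in liver, a difference of 9.03 (95% interval 6.95 to 11.11) log2 units with an adjusted p of 0.00036 for the difference. It was the only gene among all tested whose difference between tissues passed (0.00766%). In thymus alone it did not pass.

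Nuclear receptors and Ikaros factors rose in 3 of 22 tested cases and fell in none. Rora, which encodes the nuclear receptor ROR alpha, was at 1693, 2822 and 3534 in control thymus and 14836, 17429.7 and 13387 in cKO thymus. In liver it was at 5911, 8984 and 6433 in control liver and 17453, 14231 and 14772 in cKO liver. All cKO libraries were above all control libraries, and control liver was above control thymus. The rise was 2.56 ± 0.29 in thymus and 1.14 ± 0.29 in liver, and 1.85 ± 0.2 (limma adjusted p = 3.9e-05) over both. Ikzf2, the gene of Helios, rose by 1.74 ± 0.27 (limma adjusted p = 0.0017) and Ikzf3, the gene of Aiolos, by 0.89 ± 0.17 (limma adjusted p = 0.0074), while Ikzf1 did not pass (-0.04 ± 0.14, 0.94). Bach2, a repressor of effector genes, rose by 1.71 ± 0.41 (limma adjusted p = 0.032), a call lost under 12 of 29 alternatives. Of 16 tested genes of memory and quiescence 2 rose, Bach2 among them, and 1 fell, Il7r, the interleukin 7 receptor chain. Il7r was at 39747, 50118 and 27831 in control thymus and 10337, 14945 and 8534 in cKO thymus. The liver libraries gave 4131, 4674 and 2109 in control liver and 3513, 2893 and 2713 in cKO liver. Thymus libraries were apart and liver libraries overlapped, so the log2 change of -0.99 ± 0.23 (limma adjusted p = 0.024) over both came mostly from thymus (-1.8 ± 0.32, with -0.19 ± 0.32 in liver). It was lost under 9 of 29 alternatives.

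Receptors of costimulation and inhibition rose in 4 of 25 tested cases and fell in 1. Tnfrsf9, the gene of the costimulatory receptor 4-1BB, was at 219.8, 753 and 1071 in control thymus and 4483, 5084 and 3991 in cKO thymus. Among liver libraries the values were 636, 316 and 746 in control liver and 1916, 1473 and 3269 in cKO liver. The genotypes were apart over all 12 libraries, with a rise of 2.49 ± 0.41 (limma adjusted p = 0.0024). Slamf7 (0.86 ± 0.16), the inhibitory receptor gene Btla (1.38 ± 0.29) and Tigit (4.86 ± 1.17) also rose, Tigit with a call kept under 17 of 29 alternatives. Izumo1r, which encodes folate receptor 4, fell by 4.11 ± 0.68 (limma adjusted p = 0.0024) over both with little effect in thymus, where it was -0.46 ± 0.96. Cd28 and Cd226 did not pass (adjusted p of 0.76 and 0.19).

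Several of the largest rises concerned genes that control cells hardly expressed. Fxyd7 and Fxyd1, which encode small regulators of the sodium pump, and Lgi4, a secreted protein known from peripheral nerve, had 0 reads in control liver. Fxyd7 was at 0.0213, 1.18 and 226 in control thymus and 1456, 1310.1 and 2058 in cKO thymus. Liver samples held 0, 0 and 0.884 in control liver and 527, 892 and 338 in cKO liver. With 3 reads in each control library taken as the limit, the liver rise was at least 77.6-fold for Fxyd7, at least 50.7-fold for Fxyd1 and at least 131-fold for Lgi4. Over both tissues the fitted effects were 8.2 ± 1.29 (limma adjusted p = 0.0016), 7.36 ± 1.25 (limma adjusted p = 0.0031) and 8.39 ± 1.2 (limma adjusted p = 0.00069). Rapgefl1 and Fcrl6, an Fc receptor-like gene, were also without reads in control liver, with bounds of at least 21.5-fold and at least 43.1-fold. Pde8b, a phosphodiesterase that degrades cyclic AMP, had 3 reads in control liver against 2135 in cKO liver, a ratio of 609-fold (95% counting interval 208 to 2957). The glycosyltransferase gene Galnt3 had 3 against 525, a ratio of 149.8-fold (95% counting interval 51 to 729). Tnfsf18, the gene of the ligand of GITR, had 2 reads in control thymus against 525, a ratio of 226-fold (95% counting interval 62.2 to 1871). These ratios cover counting error only.

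For many of these genes the control thymus reads stood in 1 library. Control thymus library 3 was the highest of its group in 96 of the 154 rises (62.3%), against 38.3% of all tested genes, and in 22 of the 141 falls (15.6%). Without that library 546 genes were called over both tissues, 348 higher and 198 lower. Without control thymus libraries 1 and 2, in which many genes had no read, 185 were called, 104 higher and 81 lower. Nrp2, a coreceptor for semaphorins and VEGF, shows the pattern at moderate levels. It was at 163, 25.5 and 676 in control thymus and 2814, 3403 and 1049.9 in cKO thymus. For liver the values were 77.4, 185 and 97.9 in control liver and 9414, 6254 and 6078 in cKO liver. No cKO library came down to a control library, and the rise was 4.94 ± 0.63 (limma adjusted p = 0.00023). Gas7 rose by 4.02 ± 0.56 (limma adjusted p = 0.00057) and Aplp2, a relative of the amyloid precursor gene, by 2.56 ± 0.35 (limma adjusted p = 0.00042); Nrp2, Gas7 and Aplp2 kept their calls under every alternative.

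Ahnak, Actb and Sh3bgrl3 were among the most abundant rises. Ahnak (chr19:8989284-9076914, plus strand), which encodes a very large scaffold protein, was at 70688, 71325 and 64648 in control thymus and 167954, 118283 and 131251 in cKO thymus. In liver it was at 47412, 47678 and 34704 in control liver and 115477, 107739 and 103939 in cKO liver. The groups were wholly apart, and the rise of 1.17 ± 0.11 (limma adjusted p = 9.3e-06) was present in both tissues (1.0 ± 0.16 in thymus and 1.35 ± 0.16 in liver). Actb, the gene of beta actin, rose by 0.56 ± 0.11 (limma adjusted p = 0.0087) and Sh3bgrl3 by 0.68 ± 0.14 (limma adjusted p = 0.011). In Sh3bgrl3 the thymus libraries overlapped. Both missed the threshold after TMM rescaling, Actb with 0.41 (adjusted p = 0.086) and Sh3bgrl3 with 0.53 (0.064). Actb has many processed copies, and reads shared with them are not resolved here.

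**Figure D3:**
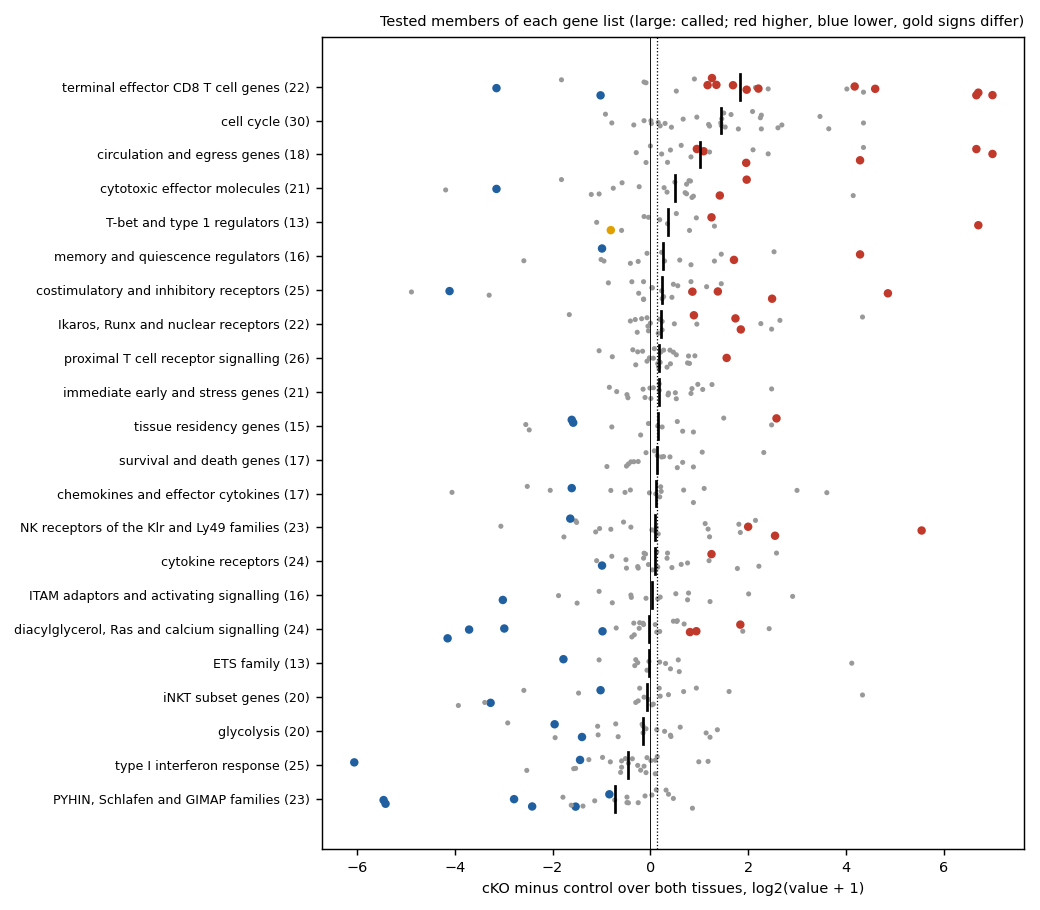
Effect over both tissues (horizontal axis, cKO minus control, log2(value + 1)) of each tested gene of 22 lists (that of Clec2 ligands, with 2 tested genes, is not drawn), with large coloured dots for called genes, small grey dots for the rest, a black bar at the list median and a dotted line at the median of all tested genes (0.14). The terminal effector list stands highest at a median of 1.83 with 11 rises, the cell cycle list is at 1.45 with no called gene, and the PYHIN, Schlafen and GIMAP list is lowest at -0.73.

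Ifi200 (PYHIN) genes, whose products sense DNA and respond to interferon, were among the falls, and Ifi213 had the smallest p of all falls. Ifi213 (ENSMUSG00000073491, chr1:173566283-173599274, minus strand) was at 8744, 5041 and 5849.9 in control thymus and 820.2, 972 and 1015 in cKO thymus. The liver libraries gave 3663, 3799 and 3107 in control liver and 558, 614 and 367 in cKO liver. Each tissue had its 3 cKO libraries well below its 3 control libraries. The effect was -2.77 ± 0.4 in thymus and -2.81 ± 0.4 in liver, and -2.79 ± 0.29 (limma adjusted p = 3.1e-05) over both. Ifi203 was at 16014, 23016 and 15154 in control thymus and 5413, 5222 and 5592 in cKO thymus. Among liver libraries the values were 14988, 13442 and 13929.6 in control liver and 6329.8, 5085 and 5290.2 in cKO liver. Its libraries were apart over all 12, and its change was -1.53 ± 0.17 (limma adjusted p = 3.9e-05). Ifi208 fell by 2.42 ± 0.37 (limma adjusted p = 0.0013). Ifi204 and Mndal also fell, with -5.42 ± 1.2 (limma adjusted p = 0.019) and -0.84 ± 0.18 (limma adjusted p = 0.017); the call of Ifi204 was kept under 20 of 29 alternatives.

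The family lists together had 0 rises and 6 falls of 23 tested genes, with a median of -0.73; 17 of the 23 were below 0. The other falling member was Slfn5 of the Schlafen family, at 2659, 568 and 1535 in control thymus and 3.08, 73.8 and 4.37 in cKO thymus. Liver samples held 1924, 1405 and 1665 in control liver and 37.4, 74.5 and 298 in cKO liver. No cKO library reached a control library, and the change was -5.46 ± 0.85 (limma adjusted p = 0.0015). All 8 tested GIMAP genes, GTPases of lymphocyte survival, missed the threshold, Gimap4 with -0.11 ± 0.15 and Gimap6 with -0.25 ± 0.19. Of 25 tested genes of the type I interferon response 0 rose and 2 fell, Oas2 (-6.06 ± 1.4) and Ifih1 (-1.44 ± 0.35), with 19 below 0 and a median of -0.45. Calls of Oas2 and Ifih1 were lost under 10 and 13 of 29 alternatives, and neither Isg15, Ifit1 nor Irf7 passed. Ifi200 and Schlafen genes are close copies, so that counts of single members are uncertain.

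Signalling genes downstream of the antigen receptor changed in both directions. Dgka, the kinase that removes diacylglycerol, was at 7373, 5567 and 7679.9 in control thymus and 231, 516 and 668 in cKO thymus. For liver the values were 7399, 5408 and 3622 in control liver and 854, 1840.0 and 1419.8 in cKO liver. All cKO libraries were lower than all control libraries, and the change was -3.98 ± 0.46 in thymus and -2.01 ± 0.46 in liver, or -2.99 ± 0.33 (limma adjusted p = 3.9e-05) over both. Atp2b4, a calcium pump of the plasma membrane, was at 2048, 3319.9 and 3249 in control thymus and 412, 339 and 995 in cKO thymus. In liver it was at 4173, 3355 and 3190.0 in control liver and 141, 61.1 and 155 in cKO liver. It too was apart over all 12 libraries, with a log2 change of -3.71 ± 0.42 (limma adjusted p = 5.2e-05). Rasgrp1, the exchange factor that diacylglycerol recruits to activate Ras, rose by 0.94 ± 0.14 (limma adjusted p = 0.00094).

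In the list of diacylglycerol, Ras and calcium signalling 3 of 24 tested genes rose and 4 fell, and the median was -0.02. The further rises were Rasa3 (1.84 ± 0.47), a Ras GTPase-activating protein, and Atp2b1 (0.81 ± 0.2), another calcium pump. The further falls were Rasgrp2 (-4.15 ± 1.07) and Rasal3 (-0.98 ± 0.2). Rasgrp2 was at -6.87 in thymus and -1.44 in liver, and Rasal3 at -1.13 and -0.84. The calls of Rasa3, Atp2b1 and Rasgrp2 were kept under only 13, 12 and 8 of 29 alternatives, and the list had 1 rise with edgeR, after TMM rescaling and in 9 of the 12 fits that left out 1 library. Of 26 genes of proximal receptor signalling only Themis passed (1.56 ± 0.38, limma adjusted p = 0.037), a call lost under 14 of 29 alternatives. The rise of Themis came mostly from thymus (2.76, with 0.35 in liver). Cd3e (-0.16 ± 0.18) and Ptprc (0.41 ± 0.12) did not pass. Outside these lists, the lysophosphatidic acid receptor gene Lpar6 was at 9817, 13468 and 9496 in control thymus and 2777, 4047 and 2636 in cKO thymus. The liver libraries gave 8467, 6714 and 6274 in control liver and 1976, 1400.5 and 1949 in cKO liver. The genotypes were apart in all 12 libraries, with a log2 change of -1.91 ± 0.22 (limma adjusted p = 5.8e-05). Rassf2, a Ras-association domain gene, fell by 3.16 ± 0.41 (limma adjusted p = 0.00035).

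Cd93 had the largest fall over both tissues among the named genes. Cd93, a C-type lectin receptor, was at 582, 824 and 167 in control thymus and 1.03, 0 and 2.16 in cKO thymus. Among liver libraries the values were 2264, 3132 and 2249 in control liver and 0.546, 7.72 and 42.2 in cKO liver. Its highest cKO library was below its lowest control library, and the change was -8.05 ± 1.1 (limma adjusted p = 0.00043). Pecam1, an endothelial marker, was also lower without passing (-4.67, limma adjusted p = 0.053). Eng of the same list had group means of at most 4.08. The summed list, almost all Pecam1, was 71.8 to 302 in control thymus and 0.923 to 68.5 in cKO thymus. In liver the sum was 463 to 671 in control cells and 1.16 to 88.8 in cKO cells. The part of endothelial cells in the fall of Cd93 was not tested. Igsf23 (-7.13 ± 1.19), the protease inhibitor gene Serpina3g (-7.05 ± 1.2), the semaphorin receptor gene Plxnd1 (-6.79 ± 1.21) and the secreted glycoprotein gene Stc2 (-6.62 ± 1.28) fell as well. Serpina3g has close copies beside it in the genome. The growth factor gene Hbegf had 0 reads in cKO thymus and 1 in cKO liver against 261 and 351 in controls, at least 31.8-fold lower in thymus and 410.0-fold (95% counting interval 73.1 to 16239) lower in liver. Lrrn4 had 0 reads in both cKO groups, at least 33.3-fold lower in thymus and at least 13-fold lower in liver. Ccdc136 (-5.89 ± 1.44), Qser1 (-6.11 ± 1.33), the zinc transporter gene Slc39a4 (-6.16 ± 1.42), the adhesion receptor gene Adgrg3 (-5.56 ± 1.33) and Lrrn4 lost their calls under 7 to 14 of 29 alternatives.

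Cd4, the coreceptor of helper T cells, was at 2579.5, 7393 and 985 in control thymus and 91.4, 376 and 734 in cKO thymus. Liver samples held 7921, 6440.2 and 6957 in control liver and 832, 234 and 1657 in cKO liver. All cKO values lay below all control values within each tissue, and the change was -3.27 ± 0.56 (limma adjusted p = 0.0034). Cd44, an adhesion receptor of activated T cells, fell by 1.02 ± 0.22 (limma adjusted p = 0.017). They were the 2 falls among 20 tested genes of iNKT subsets, with no rise; Zbtb16, which encodes the PLZF factor of iNKT cells, was 0.18 with an adjusted p of 0.84. Cd4 and Themis also stand in the list of immature thymocytes, whose summed values were 2388 to 8442 in control thymus, 2739 to 4349.9 in cKO thymus, 10293 to 14839 in control liver and 6156 to 8671 in cKO liver. Its defining Rag1 had means of at most 162 and Dntt of at most 43.2, and the part of such cells was not tested.

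The most abundant falls were small. Mbnl1, a regulator of splicing, was at 82431, 70388 and 59661 in control thymus and 43858, 45458 and 46991 in cKO thymus. For liver the values were 63783, 66785 and 66269 in control liver and 47429, 34199.7 and 38572 in cKO liver. The genotypes were apart over all 12 libraries with a log2 change of -0.68 ± 0.11 (limma adjusted p = 0.0024). Utrn (-0.78 ± 0.16), Stk17b (-0.78 ± 0.15), a kinase of the DAP kinase family, Rnf213 (-0.89 ± 0.18) and Shisa5 (-0.75 ± 0.17) fell by similar amounts. Shisa5 lost its call under 8 of 29 alternatives. In glycolysis 0 of 20 tested genes rose and 2 fell, the glucose transporter gene Slc2a3 (-1.96 ± 0.46) and Eno1 (-1.4 ± 0.35), whose calls were lost under 10 and 14 of 29 alternatives; Gapdh (-0.15 ± 0.22) and Ldha (0.13 ± 0.28) did not pass.

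Lists without called members were those of the cell cycle, of survival and death and of immediate early and stress genes. In the cell cycle list 26 of 30 tested genes were above 0 and the median was 1.45, against 0.14 over all tested genes. Yet limma called 0, edgeR 0 and DESeq2 4. An unadjusted limma p under 0.05 was found in 9, and in 1788 of all 13058 tested genes. The list does not hold all genes of DNA replication and cell division. Outside it Lig1 (2.27), Clspn (4.42) and Hmmr (4.39) were members that rose, named after their values were seen. Lig1 kept its call under 29 of 29 alternatives, and Clspn and Hmmr each under 17. Mki67, the gene of the Ki-67 proliferation antigen, was at 1670.4, 2098 and 2380.4 in control thymus and 3150.4, 1827 and 9189.8 in cKO thymus. In liver it was at 7015, 3813 and 7571 in control liver and 11729, 11919 and 32494 in cKO liver. Values overlapped between genotypes in thymus and spread widely in cKO cells, and Mki67 did not pass (1.19 ± 0.35, limma adjusted p = 0.084). Survival genes had a median of 0.14 and immediate early genes of 0.18, with 1 of 17 and 2 of 21 at an unadjusted p under 0.05 and 0 called by limma, edgeR or DESeq2. Among cytokine receptors 1 of 24 rose (Ifngr1) and 1 fell (Il7r), and among chemokines and effector cytokines 0 of 17 rose and 1 fell (Xcl1), single genes against the shares of 1.18% and 1.1% over all tested genes. Ifng was at 1.1 with an adjusted p of 0.56, and Ccl5 at -1.02 ± 0.45 in thymus and 1.45 ± 0.45 in liver.

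Some members, rises more than falls, were near each other on the chromosomes, though most were not. Of 151 rises with a position, 25 (16.6%) had another rise starting within 100 kb, against 2.66% of other tested genes with a rise that near; for falls the shares were 9 of 139 (6.47%) and 2.61%. A run of 5 rises stands in a row on chromosome 7, chr7:31032722-31076704, in the order Fxyd5, Fxyd7, Fxyd1, Lgi4 and Fxyd3, genes described here after their values were seen. Fxyd5 rose by 0.68 ± 0.16 (limma adjusted p = 0.029) and Fxyd3 by 5.9 ± 1.53 (limma adjusted p = 0.05). On either side, Lsr (0.83, adjusted p = 0.85) and Hpn (3.44, 0.3) did not pass. Lgi4 and Fxyd3 overlap on opposite strands, and without knowledge of strand in the counting their reads cannot be told apart. The calcitonin genes Calca (6.0 ± 1.17) and Calcb (5.51 ± 1.2), S100a4 and S100a6, and Styk1 and Ybx3 (1.26 ± 0.27) are other groups of neighbouring rises. Klra2 (5.49 ± 1.23), also a rise, lies close to Styk1 but starts beyond the 100 kb. Igf2r (1.13 ± 0.24) and its antisense partner Airn (3.54 ± 0.8) overlap, with the same limit on strand. Among falls, Ifi213, Ifi208 and Ifi204 and, further along chromosome 1, Mndal and Ifi203 form the main group; Mndal and Ifi203 overlap on 1 strand, so reads of shared sequence are uncertain.

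**Figure D4:**
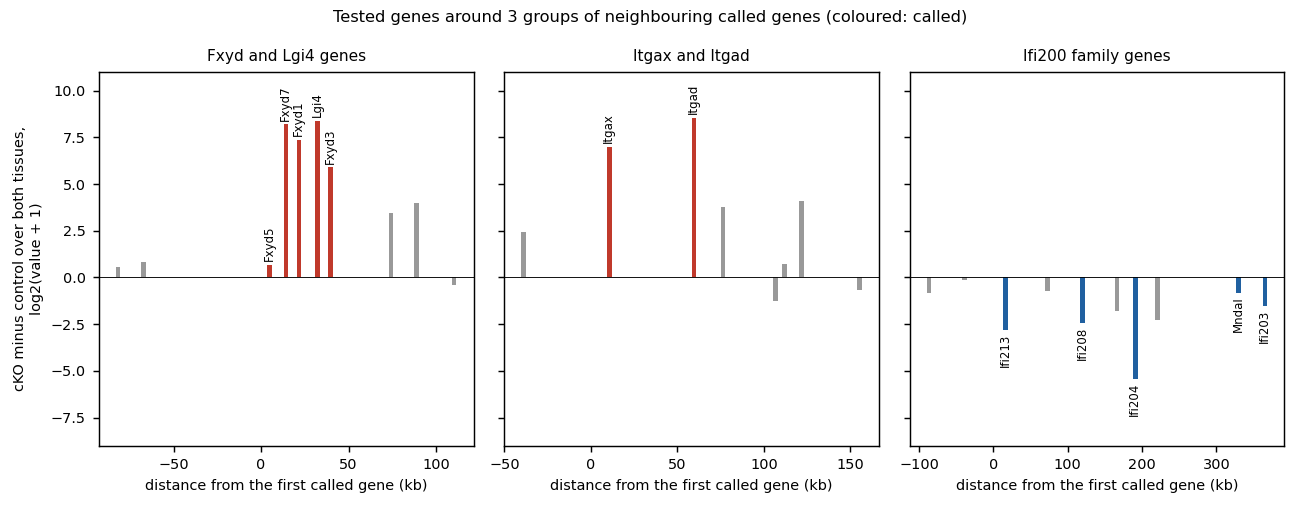
Effect over both tissues (bars, vertical axis, cKO minus control, log2(value + 1)) of tested genes by distance in kb from the first called gene at 3 places, with called genes coloured and named and others grey. The 5 Fxyd and Lgi4 genes rise together between 0.68 and 8.39 units, Itgax and Itgad rise beside an Itgam that did not pass, and 5 of the Ifi200 genes shown fall.

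Among the 295 members 162 had the larger effect in liver and 133 in thymus. An unadjusted p under 0.05 for the difference between tissues was found in 53 members and in 702 of all tested genes (5.38%), and after adjustment Styk1 alone remained. With 3 libraries a group the intervals are wide: for Gzmb the difference, liver minus thymus, was 1.76 (95% interval 1.07 to 2.45) with an adjusted p of 0.13, for Klra1 3.07 (95% interval 1.93 to 4.21) with 0.13, for Rora -1.42 (95% interval -2.26 to -0.57) with 0.77 and for Dgka 1.97 (95% interval 0.61 to 3.34) with 0.87. For Ets1 it was -0.39 (95% interval -1.2 to 0.42), for Ifi213 -0.04 (95% interval -1.23 to 1.16) and for Ahnak 0.35 (95% interval -0.11 to 0.81). A difference that did not pass does not show that the tissues responded alike.

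Mmp9 and Stat4 were called over both tissues without sharing a direction. Mmp9 was at 0.0213, 0.0275 and 2.55 in control thymus and 1.03, 0 and 1.43 in cKO thymus. The liver libraries gave 3429.5, 3033 and 3585 in control liver and 1.16, 0.992 and 0 in cKO liver. It was near 0 in thymus in both genotypes and in cKO liver, and its effect of -5.44 ± 1.1 (limma adjusted p = 0.011) over both came from control liver alone. Mmp9 is the only gene of the neutrophil list in the table, so the part of neutrophils was not tested. Stat4 was at 11773, 9191 and 5409 in control thymus and 2395, 3144 and 2592 in cKO thymus. Among liver libraries the values were 9647, 8932 and 7662 in control liver and 10117, 8395 and 7929 in cKO liver. Thymus libraries were apart and liver libraries overlapped, with effects of -1.64 ± 0.29 in thymus and 0.01 ± 0.29 in liver, and -0.81 ± 0.21 (limma adjusted p = 0.046) over both; the call of Stat4 was lost under 16 of 29 alternatives.

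How many genes passed depended on the libraries used more than on the choice of scaling. Leaving out the liver libraries of lowest depth, control 3 and cKO 2, left 77 called genes, and leaving out control thymus libraries 1 and 2 as well left 53, 37 higher and 16 lower. Among the members 41 kept their call under all 29 alternatives, 27 higher and 14 lower, and 129 kept it when each library was left out in turn. Among the 79 called genes named by rule 29 kept the call throughout; they include Ets1, Gzmb, Styk1, Ahnak, Rora, Itgad, Fxyd7, Ifi213, Ifi203, Ifi208, Dgka, Atp2b4, Lpar6 and Ccr9.

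**Figure D5:**
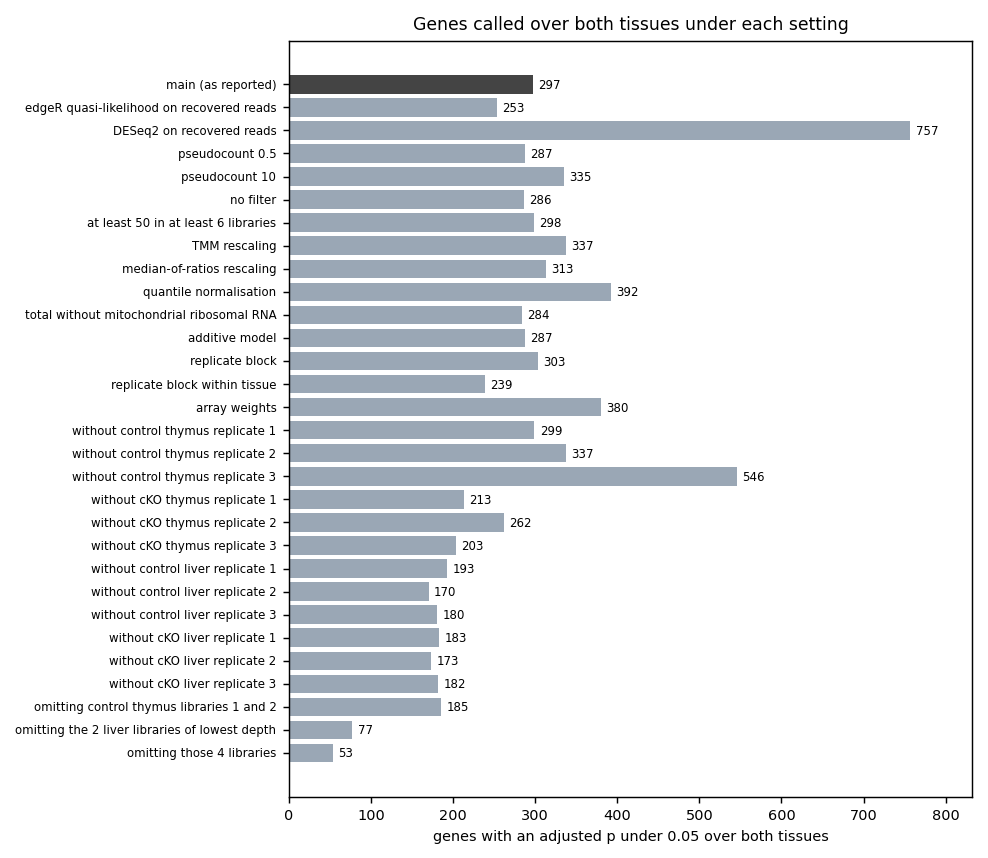
Number of genes called over both tissues (horizontal axis, starting at 0) under the reported setting and each of 29 alternatives. The reported count is 297, the bars run from 53 without 4 libraries to 757 with DESeq2, and leaving out single libraries gives 170 to 546.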

How the data were processed

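RNA-seq of sorted iNKT1 cells was analysed in 4 groups of 3 libraries. The RNA was total RNA from an RNeasy mini kit and the libraries were Nugen Ovation Ultralow libraries, per the labels' protocols. Build mm10 and the tools STAR, DESeq2, HTSeq 0.6.1, TopHat2 2.1.0 and Trimmomatic 0.33 appear, with no roles, in the submitters' processing notes; strand use and the handling of shared reads are not given in the sources used here. The authors deposited 1 table of 14004 Ensembl genes whose values are a signal adjusted for library size and never negative. Whole reads were recovered by inverting a negative binomial quantile adjustment (fitted dispersion 1.415) that matched 96.7% of values within 0.1 of a whole read; that the authors used it is inferred from the values. Recovered reads gave depths, read numbers and the fits with edgeR 4.0.16 and DESeq2 1.42.0.

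Symbols and positions came from a GRCm38 annotation by Ensembl identifier (13359 of 14004, 95.4%). A gene was tested when 3 or more libraries had a value of 10 or more (13058 genes). limma 3.58.1 in R 4.3.3 was fitted on log2(value + 1) with 1 mean per group, a variance trend and without covariates (residual degrees of freedom 8, prior 10.7); the plan named edgeR for whole counts, and limma was used because the values are an adjusted signal. Tests were 2-sided, with Benjamini-Hochberg adjustment over all tested genes and a threshold of 0.05. The procedure was tested on simulated data with genes changed alike in both tissues. Simulated counts were scaled by library total, without the quantile adjustment inferred for the authors' values, and unequal effects were not simulated. The procedure recovered 4 of 64 genes changed 2-fold, 15 of 63 changed 4-fold and 43 of 63 changed 16-fold. Of its 65 calls 3 were false. A gene that did not pass may thus still differ between genotypes.

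Members, gene lists and tests were chosen with earlier results of these data known. The rule for named genes took, among members whose higher genotype averaged 50 or more in each tissue, the 12 rises and 12 falls with the largest smaller within-tissue effect, the 8 of each with the smallest p and the 6 of each most abundant, with genes called in both tissues at once, Ets1, Tbx21 and up to 4 called and 2 other members of each list. Predicted and Rik genes, pseudogenes and receptor segments stay unnamed (19 members); other list genes, neighbours and markers were named after their values were seen. Same-numbered libraries did not pair (see the closing section). Alternatives covered the test, pseudocount, filter, scaling, block, weights and libraries. Some genes of the lists are counted and not reported here by name.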

Additional observations from a re-analysis of the deposited data

Results flagged for a closer look

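The genotype effect on Styk1 differed between the tissues by the test of the difference itself: it was 9.03 log2 units larger in liver than in thymus (limma adjusted p = 0.00036), with effects of 1.04 ± 0.7 in thymus and 10.06 ± 0.7 in liver. All 3 cKO liver libraries were above all 3 control liver libraries, which together held 7 reads, while in thymus the genotypes overlapped. Groups of 3 libraries are too small for a test of single outlying libraries.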

How the results depend on the processing

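No named gene called over both tissues changed sign under any of 29 alternatives, 12 of which left out 1 library; 29 of 79 kept their call under all of them, and 8 of 40 named genes that were not called passed under at least 1. The count of genes called over both tissues (297) was 253 with edgeR, 757 with DESeq2, 337 after TMM rescaling, 313 after median-of-ratios rescaling and 380 with array weights. It ran from 170 without control liver replicate 2 to 546 without control thymus replicate 3, and was 185 without control thymus libraries 1 and 2, 77 without the 2 liver libraries of lowest depth and 53 without those 4, an alternative chosen after seeing the data. Of the 253 genes called by edgeR 232 were among the 297. The count called in both tissues at once (5) was 3 with edgeR, TMM or median-of-ratios rescaling, 44 with DESeq2 and 10 after quantile normalisation. It ran from 0 to 13 when single libraries were left out, being 0 without either of cKO thymus 2 and 3, control liver 1 and 2 and each of the 3 cKO liver libraries, and 13 without control thymus 3. It was 0 with array weights and 0 in each of the 3 fits without several libraries; limma then held between 153 and 329 genes at an unadjusted p under 0.05. With the replicate block 303 genes were called over both tissues and 2 in both at once; with the replicate block within tissue 239 and 0 (294 at an unadjusted p under 0.05). Correlations of the deviations of same-numbered libraries ran from -0.096 to 0.08, so the numbers do not pair the samples. The additive model has no effect within each tissue and gave no value in both at once. In all omissions that left a group with 1 library, that library is assumed to vary like the other groups. The cause of the changed counts was not tested, beyond the smaller number of libraries. With 3.87 and 3.21 M (mega-) reads in 1 control and 1 cKO liver library, low values there rest on few reads.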
